A study of Rattus norvegicus and Ovis aries with 113 samples.

Results

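Cadherins and protocadherins are cell adhesion proteins, and their genes were followed here through the brain, sperm and ovary libraries of sheep and rats. A gene was taken as a member when its upper-cased symbol began with CDH and a digit, or with PCDH. The rule found 36 members among 31304 entries in the sheep count table and 74 among 38675 in the rat table, 110 of 69979 in all. All 36 sheep symbols were also present in the rat. The excess in the rat lay almost wholly in the clustered protocadherins, with 1 alpha, 22 beta and 15 gamma entries, against 2 beta entries (PCDHB1 and PCDHB7) and no alpha or gamma entry by symbol in the sheep table. Both tables held 5 classical type I cadherins, 13 type II cadherins (with CDH5 placed among them), 4 delta-1 and 5 delta-2 protocadherins and 3 other non-clustered protocadherins. The remaining CDH genes numbered 4 in sheep (CDH13, CDH16, CDH17 and CDH26) and 6 in rat, where Cdh23 and Cdh7l1, annotated as a non-coding RNA, were added.

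Cadherins join neighbouring cells through calcium-dependent contacts between their extracellular repeats. Classical type I and type II cadherins are tied to the actin skeleton by catenins, and different neurons and brain areas are known to carry different combinations of them. Delta protocadherins act in axon guidance and synapse formation and signal through other partners. The clustered protocadherins lie in tandem arrays, where each variable exon of the alpha and gamma arrays has its own promoter and is spliced to shared constant exons, while each beta gene is a single exon. Individual neurons express small subsets of them, and these subsets are known to act in self-recognition between the branches of a neuron. In the reproductive tract, cadherins are best known from epithelia, such as E-cadherin (CDH1), and from endothelium, such as VE-cadherin (CDH5).

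RNA came from 5 post-pubertal male sheep, numbered 687, 688, 690, 694 and 699, each with sperm and 10 brain regions from the same hemisphere: frontal, prefrontal, motor, posterior parietal, visual and entorhinal cortex, hippocampus, basal ganglia, pons and cerebellum. The rats were Sprague Dawley, 15 post-pubertal males giving a whole brain and sperm, which the design text describes as seminal fluid, and 14 females giving a whole brain and ovaries. No group was treated or genetically modified. Sheep and rat RNA went through different extraction and library kits, so the species cannot be told apart from the preparation. Per library, from 13698889 to 119206015 gene counts were recorded, and the shallowest were a sheep sperm and a rat sperm library. Rn45s, a ribosomal RNA entry, held 29.9% of the counts in 1 female and 28.4% in 1 male rat brain. Rat sperm libraries 7, 16 and 17 stood apart, with 1596, 461 and 461 genes at 1 to 10 counts against 5133 to 8795 in the other 12.

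The labels were compared with the data before the members were read. Each sheep brain library was correlated, across all tested genes, with the mean profile of every region computed without that library. The best match was its own region for 20 of 50 libraries and another area with both in the neocortex for 22. In the remaining 8 the best match crossed those bounds, and 6 of these lay among hippocampus and entorhinal cortex or between entorhinal and parietal cortex. The other two went against their labels: the library labelled motor cortex of sheep 687 matched hippocampus at r = 0.598 and its own region at r = -0.177, and the library labelled entorhinal cortex of sheep 688 matched frontal cortex at r = 0.671 and its own region at r = -0.437. Without these 2 libraries 32 members differed among regions in place of 31, against 53.6% of all genes. The members then called higher and lower follow, with the shares of all genes in brackets. They were 4 and 5 in basal ganglia (5.83% and 4.78%), 4 and 19 in cerebellum (9.6% and 19.5%) and 4 and 7 in pons (9.96% and 8.91%). In hippocampus they were 3 and 2 (4.03% and 1.26%), in entorhinal cortex 3 and 2 (3.95% and 0.431%) and in motor cortex 4 and 0 (2.11% and 0.628%). Frontal cortex had 5 and 1 (2.57% and 0.52%) and visual cortex 2 and 1 (2.03% and 0.375%). Prefrontal cortex had 1 and 2 (1.97% and 0.829%) and posterior parietal cortex 2 and 1 (2.28% and 0.571%). Single members are given without the 2 libraries in hippocampus, entorhinal and motor cortex. Markers of the labelled tissues were found at high levels in cerebellum, where 6 listed granule and Purkinje cell genes summed to 2280 to 2831 CPM (counts scaled to a library total of 1000000) against at most 134 in other regions, and in basal ganglia, where 6 striatal neuron genes summed to 1795 to 4531 CPM against at most 344. For the pons, 6 brainstem genes summed to 4.33 to 78.1 CPM, and the lowest pons library lay within the range of other regions.

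Expression levels are given as CPM, scaled by the trimmed mean of M values (TMM). Differences are log2 fold changes with their standard error (SE) from edgeR's quasi-likelihood test, with Benjamini-Hochberg adjustment over all genes tested. A gene is said to rise or fall, or is called, when its adjusted p was below 0.05 and its log2 fold change at least 1 in size. Gene lengths were not used, so levels are compared between samples and not between genes. Nothing in the labels says how the replicates of a group were spread over extraction batches, so p-values measure the spread between libraries together with any such batch. The sheep and rat fits had no animal term, so libraries of 1 sheep, or brain and sperm or ovary of 1 rat, were treated as independent. In each fit all groups shared 1 spread. In the sheep sperm fit that spread came mostly from the 50 brain libraries of the same 5 sheep, so its p-values do not measure the spread between 5 sperm samples. In bulk tissue, fewer cells of a type and less RNA per cell cannot be told apart.

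In the sheep brain 34 of the 36 members passed the low-count filter, and CDH17 and CDH26 did not. Of these, 31 differed among the 10 regions, against 52.4% of all genes tested, and the fitted range between the highest and lowest region had a median of 2.40 on the log2 scale for the members and 1.26 for all genes. The exceptions were CDH2, CDH22 and PCDHB1. CDH2, or N-cadherin, the general adhesion molecule of neural tissue, had the narrowest range, with region means from 51.4 CPM in basal ganglia to 72.5 CPM in entorhinal cortex, a fitted range of 0.50 and adjusted p = 0.234. The cerebellum held the lowest mean of 18 members and the basal ganglia the highest mean of 7. In contrasts of each region with the mean of the other 9, 29 members were called in at least 1 region, with 27 calls higher and 34 lower. These counts of means and calls have no share over all genes beside them. The share of all genes called is given with each region below.

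**Figure D1:**
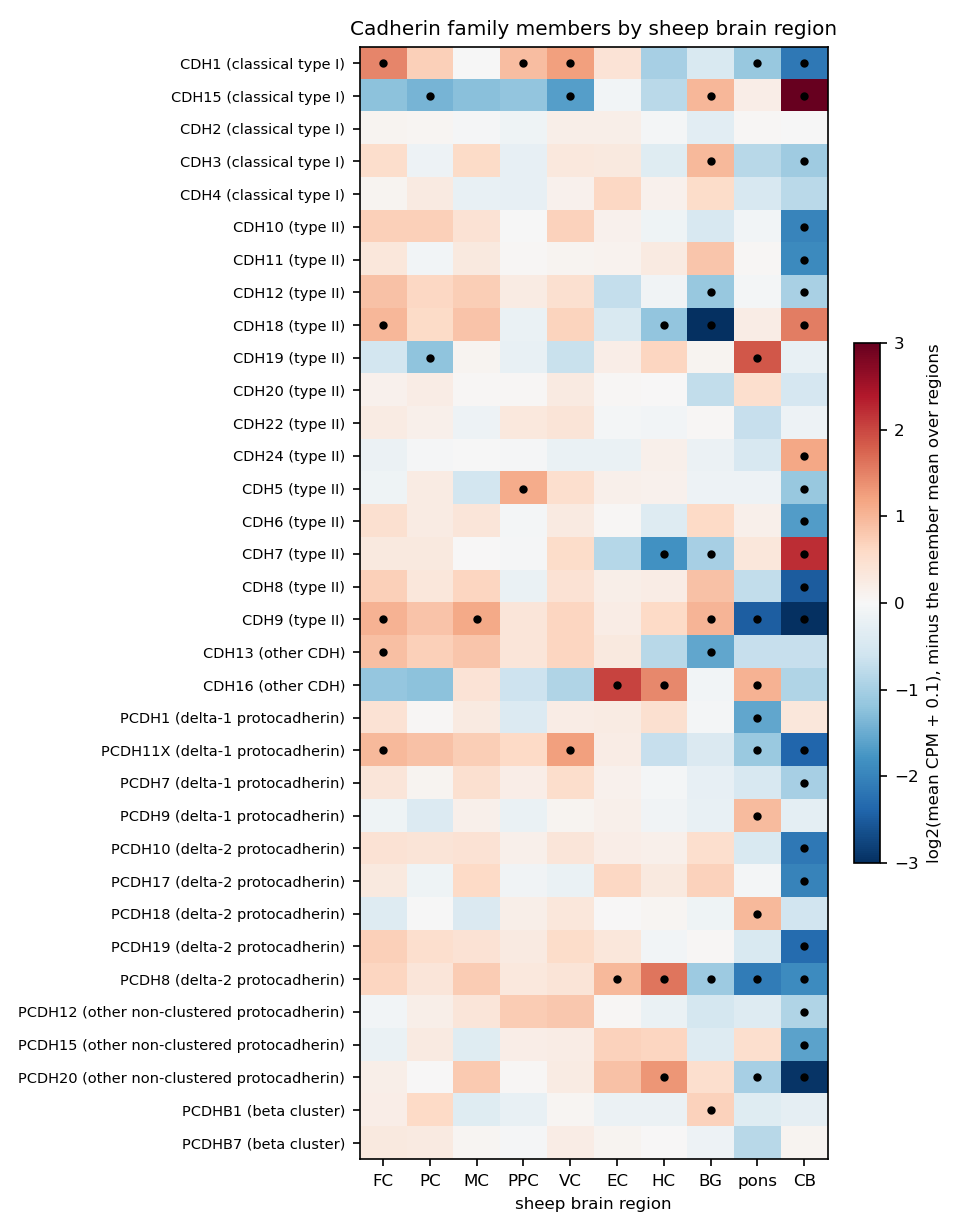
Mean level of the 34 tested members in each sheep brain region, as log2(mean CPM + 0.1) minus the member's mean over regions, with members grouped by family and colours capped at 3 in either direction. Dots mark a call against the mean of the other 9 regions; FC, PC, MC, PPC, VC and EC are frontal, prefrontal, motor, posterior parietal, visual and entorhinal cortex, HC hippocampus, BG basal ganglia and CB cerebellum. The cerebellum column holds 22 of the 61 dots.

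The cerebellum was the region where the cadherin complement differed most often. There 4 members rose, against 9.35% of all genes, and 18 fell, against 19.5%, so the share that fell, 18 of 34, was above the background. CDH15, or M-cadherin, is known from muscle precursors and from cerebellar granule cells. Its level in the cerebellum was 98.2, 60.9, 55.3, 100.6 and 64.8 CPM in sheep 687, 688, 690, 694 and 699, the order used for all sheep values below. No library of another region exceeded 2.75 CPM, so the groups did not overlap, and the difference was 7.46 ± 0.274 (SE) with adjusted p = 2.94e-26. CDH7, a type II cadherin, was at 94.2, 77.5, 82.1, 103 and 73.2 CPM in the cerebellum and at no more than 40.6 CPM elsewhere, 2.47 ± 0.210 higher (SE, adjusted p = 1.06e-13). CDH18, another type II cadherin, also rose, by 1.73, with 35 to 49.3 CPM in the cerebellum, and overlapped with frontal and visual cortex, which reached 36.5 CPM. CDH24 rose by 1.30 and did not overlap, at 10.3 to 18.0 CPM against at most 9.22.

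Among the members that fell in the cerebellum, 8 did not overlap with any other region, against 4.7% of all genes, and 3 of those that rose, against 4.53%. These 8 were the type II cadherins CDH8 (-2.79), CDH10 (-2.23) and CDH11 (-2.13) and the protocadherins PCDH10 (-2.39), PCDH11X (-2.69), PCDH17 (-2.24), PCDH19 (-2.61) and PCDH20 (-3.43), given as log2 fold changes. CDH9, a type II cadherin known from synapses of hippocampal neurons, fell most, by 4.01 on the log2 scale (SE 0.490, adjusted p = 2.18e-09), with 0.438, 0.595, 0.267, 0.135 and 1.21 CPM. It overlapped only with pons. PCDH20, a non-clustered protocadherin, was at 1.05, 0.747, 0.816, 0.404 and 0.924 CPM in the cerebellum against a lowest value of 2.26 CPM elsewhere. PCDH19, whose human counterpart is an epilepsy gene, had a cerebellar mean of 4.03 CPM against 15.0 CPM in pons, the next lowest region.

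**Figure D2:**
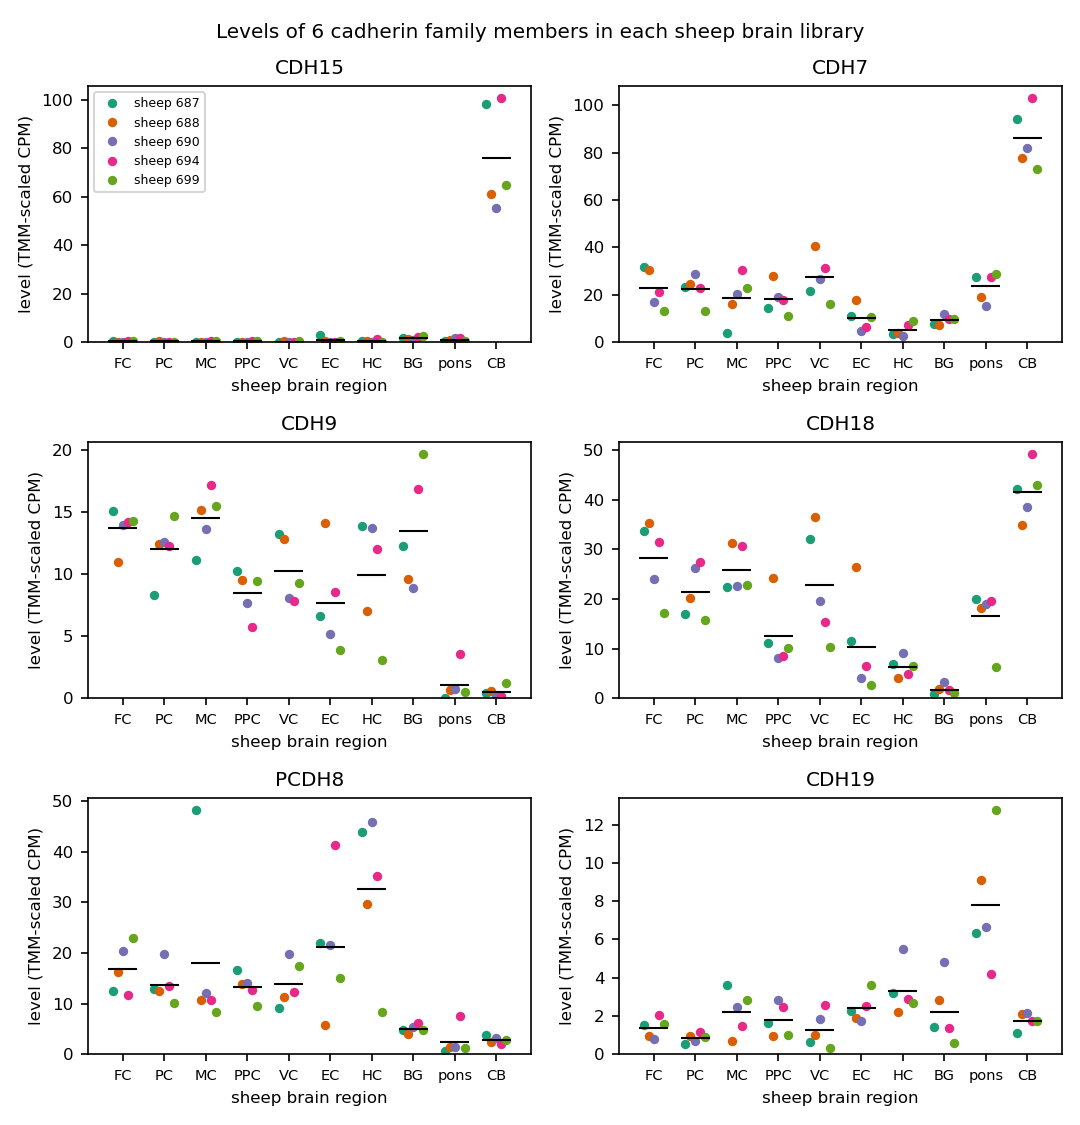
TMM-scaled CPM of CDH15, CDH7, CDH9, CDH18, PCDH8 and CDH19 in each of the 50 sheep brain libraries, 1 point per sheep and region with the region mean as a bar, each panel on its own linear scale from 0. CDH15 and CDH7 stand apart in cerebellum, and CDH9 is near 0 in cerebellum and pons, apart from sheep 694 in pons, at 3.56. The PCDH8 point of sheep 687 in motor cortex, at 48.3, lies above every hippocampus value.

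In the basal ganglia 4 members rose, against 5.54% of genes, and 5 fell, against 4.75%. All 9 overlapped with other regions, where 1.36% of genes rose and 0.203% fell without overlap. CDH18 fell by 3.44 on the log2 scale (SE 0.404, adjusted p = 3.43e-09), with 0.731, 1.74, 3.15, 1.7 and 0.96 CPM, and the other regions held at least 2.69 CPM, so only 1 basal ganglia library lay within their range. CDH13, or T-cadherin, which is anchored in the membrane by a lipid and lacks the catenin-binding tail, was at 9.32, 10.6, 15.6, 14.0 and 14.7 CPM in the basal ganglia and at 72.7, 71.0, 65.3, 77.7 and 70.2 CPM in frontal cortex. It fell in the basal ganglia by 1.74 (SE 0.228, adjusted p = 4.66e-08). The rises were smaller: CDH15 by 1.35 (SE 0.371, adjusted p = 0.00458), with 0.705 to 2.38 CPM, CDH9 by 1.18 (SE 0.309, adjusted p = 0.00297), CDH3 by 1.08 and PCDHB1 by 1.33. Because the contrast averages logarithms over regions, CDH15 was called higher here although the cerebellum exceeded it in every sheep. Without sheep 699, neither CDH15 (adjusted p = 0.059) nor CDH9 (0.98, adjusted p = 0.03) was called, and with plain library totals CDH9 stood at 0.91. CDH3 stood at 0.68 without sheep 699, and PCDHB1 (adjusted p = 0.0462) lost its call without any 1 of sheep 687, 688, 690 and 699 (adjusted p = 0.0539 to 0.17).

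In the pons 4 members rose, against 9.66% of genes, and 6 fell, against 9.02%. The 4 that rose overlapped with other regions, where 0.785% of genes rose without overlap. CDH19, a type II cadherin known from neural crest and glia, was at 6.32, 9.12, 6.64, 4.17 and 12.8 CPM, 2.13 ± 0.271 higher (SE, adjusted p = 1.2e-08), and the range overlapped with hippocampus. PCDH18 rose by 1.09 (adjusted p = 0.000252) and PCDH9, a delta-1 protocadherin, by 1.07, with 319, 412, 187, 189 and 583 CPM. PCDH18 stood at 0.99 without sheep 687 and PCDH9 at 0.73 without sheep 699, and neither was then called. Listed oligodendrocyte markers (5 of 5) summed to 60894, 54528, 32839, 18016 and 91091 CPM in the same pons libraries against 1271 to 33526 CPM in all other libraries. The part of these markers in the CDH19 and PCDH9 results was not tested. CDH9 fell by 2.82 (adjusted p = 1.05e-06), with 0.0214, 0.664, 0.73, 3.56 and 0.488 CPM, and sheep 694 was highest. PCDH8, a delta-2 protocadherin that is induced by activity in hippocampal neurons, fell by 2.37 (adjusted p = 1.04e-05), with 0.619, 1.31, 1.31, 7.48 and 1.28 CPM, again highest in sheep 694. PCDH1 fell by 1.74 and did not overlap with other regions, at 16.5 to 42.6 CPM, against 1.34% of genes that fell without overlap.

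In the hippocampus 3 members rose, against 3.46% of genes, and 2 fell, against 1.15%, 5 calls against 4.62% in either direction. PCDH8 was at 44.0, 29.7, 45.8, 35.2 and 8.24 CPM, 1.80 ± 0.291 higher (SE, adjusted p = 2.89e-05). PCDH20 was at 25.2, 11.6, 26.0, 15.2 and 7.31 CPM, 1.5 ± 0.302 higher (SE, adjusted p = 0.000647). Both were lowest in sheep 699, whose hippocampus library matched entorhinal cortex at r = 0.460 and its own region at r = 0.12. CDH7 fell by 2.04 (adjusted p = 1.13e-05), with 2.54 to 8.86 CPM, and CDH18 by 1.31 (adjusted p = 0.00745, or 0.0594 without sheep 694). Without the 2 libraries that went against their labels, PCDH8 was 1.86 and PCDH20 1.60 higher, with adjusted p = 3.66e-07 and 3.65e-06.

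In entorhinal cortex 2 members rose, against 2.23% of genes, and 0 fell, against 0.0142%. PCDH8 was at 21.9, 5.69, 21.6, 41.3 and 15.1 CPM and rose by 1.10 (adjusted p = 0.0334), a call lost when sheep 690, 694 or 699 was left out (adjusted p = 0.122, 0.249 and 0.0815). The library labelled entorhinal cortex of sheep 688 held the lowest value. Without it and the library labelled motor cortex of sheep 687, 5 members were called: PCDH8 rose by 1.43 (adjusted p = 0.000341), PCDH20 by 1.34 and CDH16 by 3.32, and CDH7 fell by 1.28 and CDH18 by 1.25. Of all genes 843 were then higher (3.95%) and 92 lower (0.431%), in place of 471 and 3. The directions of PCDH8, PCDH20, CDH7 and CDH18 were then those seen in hippocampus. CDH16, first known from kidney epithelium, was at 2.33, 0.105, 0.226, 1.87 and 4.65 CPM in entorhinal cortex and rose by 2.69 (SE 0.549, adjusted p = 0.00199), a call lost without sheep 699 (1.98, adjusted p = 0.127). It was also called in hippocampus (1.97, adjusted p = 0.0217), where the call was lost without sheep 688 (adjusted p = 0.156) or 690 (0.105). In pons (1.5, adjusted p = 0.0387) the call of CDH16 was lost without sheep 690 (0.63, adjusted p = 0.511) or 694 (0.0872), with DESeq2 (0.0658), with voom (0.538) and with the replicate block (0.0657). CDH16 was at 2.39 CPM in the library labelled motor cortex of sheep 687, where choroid plexus and ependyma markers (5 of 6 in the table) summed to 812 CPM.

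In motor cortex 1 member was called, against 1.64% of genes. It was CDH9, which rose (1.51% of genes rose and 0.128% fell), at 11.1, 15.1, 13.6, 17.2 and 15.5 CPM (log2 fold change 1.30, adjusted p = 0.00811). The call was lost without sheep 688 (adjusted p = 0.0568) or 690 (0.077). The 9 averaged regions include cerebellum and pons, where CDH9 stood at -4.01 and -2.82, and CDH9 was also called higher in frontal cortex and basal ganglia. A call against that average therefore need not set 1 cortical area apart from the others. The library labelled motor cortex of sheep 687 was highest of the 5 for PCDH8, at 48.3 CPM against 8.34 to 12.1, and for PCDH20, at 36.8 CPM. Without it and the library labelled entorhinal cortex of sheep 688, 4 members rose in motor cortex: CDH9 by 1.42, CDH13 by 1.12, CDH18 by 1.10 and PCDH11X by 1.09. Of all genes 451 were then higher (2.11%) and 134 lower (0.628%), in place of 320 and 27.

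Frontal cortex had 5 members higher, against 2.36% of genes, and 0 lower, against 0.402%, with 2.77% called in either direction. CDH9 rose by 1.20 (adjusted p = 0.0104, or 0.0953 without sheep 690), with 15.1, 10.9, 13.9, 14.1 and 14.2 CPM, and CDH18 by 1.11 (adjusted p = 0.00615), with 17.2 to 35.4 CPM, a call lost without sheep 687 (adjusted p = 0.0605) or 694 (0.0584). CDH13 rose by 1.00, close to the fold threshold, and stood at 0.98 without sheep 687 and 0.99 without sheep 699. PCDH11X rose by 1.09 and stood at 0.99 without sheep 694. CDH1 rose by 1.80 (0.91 and not called without sheep 699), with 1.92, 1.73, 1.07, 1.14 and 7.43 CPM, and in the same library of sheep 699 pericyte and smooth muscle markers (6 of 6) summed to 1363 CPM. The part of those markers was not tested.

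Visual cortex had 2 members higher, against 1.87% of genes, and 1 lower, against 0.251%, with 2.12% called in either direction. PCDH11X, an X-linked delta-1 protocadherin, was at 41.2, 53.8, 47.3, 31.8 and 23.1 CPM and rose by 1.38 (adjusted p = 3.53e-05). CDH1 rose by 1.56 (adjusted p = 0.00327, or 0.0613 without sheep 688), and CDH15 fell by 2.17 (adjusted p = 0.00903), with 0.0735 to 0.332 CPM. Prefrontal cortex had 0 members higher, against 1.75% of genes, and 2 lower, against 0.705%, with 2.46% called in either direction. CDH15 fell by 1.78 (adjusted p = 0.0294), a call lost without sheep 690, 694 or 699 (adjusted p = 0.0932, 0.109 and 0.0843). CDH19 fell by 1.43 (adjusted p = 0.0149), a call lost without sheep 687 (adjusted p = 0.0919) or 690 (0.087). In the visual and prefrontal contrasts the averaged regions include the cerebellum, where CDH15 stood at 7.46 and PCDH11X at -2.69. CDH15 reached the 5 CPM needed for naming only in the cerebellum.

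Posterior parietal cortex had 2 members higher, against 2.2% of genes, and 0 lower, against 0.454%, with 2.66% called in either direction, and both calls rested on 1 library. CDH5, VE-cadherin of endothelial junctions, was at 9.73, 13.0, 23.4, 72.8 and 16.7 CPM, 1.25 higher (adjusted p = 0.00665). Endothelial markers (6 of 6) summed to 129, 195, 303, 1088 and 234 CPM in the same libraries, so sheep 694 was highest for both. Without that library CDH5 stood at 0.44 with adjusted p = 0.457 and no member was called, and with voom it stood at 0.74 with adjusted p = 0.0744. CDH1 rose by 1.19 (0.14, adjusted p = 0.871, without that library, and 0.95, adjusted p = 0.0656, with the replicate block), with 5.51 CPM in sheep 694 and 0.522 to 1.00 CPM in the others.

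Across all 10 region contrasts, CDH2, or N-cadherin of neural junctions, lay between -0.34 in basal ganglia and 0.21 in entorhinal cortex and was called in none. CDH1 ran from -3.04 in the cerebellum to 1.80 in frontal cortex, and also fell in pons by 1.39 (adjusted p = 0.0124), a call lost without sheep 687 (adjusted p = 0.058) or 688 (0.0774). CDH5 fell in the cerebellum by 1.28 (adjusted p = 0.00461) and lay between -0.62 and 0.55 in the 8 regions other than cerebellum and posterior parietal cortex. CDH13 was called in basal ganglia and frontal cortex and lay between -0.93 and 0.94 elsewhere. PCDH11X ran from -2.69 in the cerebellum to 1.38 in visual cortex and also fell in pons by 1.25 (adjusted p = 0.000211). CDH16 ran from -1.85 in prefrontal to 2.69 in entorhinal cortex.

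Cadherins are often used as markers of cortical areas, so the 5 neocortical areas were also compared among themselves. None of the 34 members was called by edgeR, against 4 of 21147 genes (0.0189%). At an unadjusted p under 0.05 there were 5 members with edgeR, 6 with DESeq2 and 8 with voom and quality weights, where the lowest adjusted p was 0.299, 0.127 and 0.0683. The widest fitted ranges were those of CDH16 (2.32, adjusted p = 0.536), PCDHB1 (1.86, adjusted p = 0.619) and CDH5 (1.68, adjusted p = 0.299), and those of CDH1 (1.56, adjusted p = 0.486), PCDH11X (0.64, adjusted p = 0.81), CDH13 (0.53, adjusted p = 0.77) and CDH2 (0.31, adjusted p = 0.855) were narrower. Without the 2 libraries that went against their labels 0 members were called, 5 had an unadjusted p under 0.05 and the lowest adjusted p was 0.353. A p that misses the threshold does not show that the areas were alike, and 22 of the 50 brain libraries were neocortical ones that matched another neocortical area best.

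Genes that work with cadherins were counted from lists of catenins and junction partners, regulators of the clustered protocadherins, protocadherin partners and proteases, and other members of the cadherin superfamily. Among the 10 regions, 10 of 17 catenins and junction partners, 2 of 17 regulators, 12 of 20 partners and 21 of 23 other superfamily members differed, beside 31 of 34 members and 52.4% of all genes. The widest fitted ranges were those of JUP (plakoglobin, 2.85), the DNA methyltransferase DNMT3A (1.59), the kinase PTK2B (4.97) and the large cadherin FAT2 (11.20). FAT2, known from cerebellar granule cells, rose by 9.20 in the cerebellum. In the pons 4 of 17 catenins and junction partners rose, led by CTNNA3 at 1.95, and none fell, while 1 of 20 partners rose and 6 fell, led by PTK2B at -4.32, beside 9.66% and 9.02% of all genes.

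In sheep sperm most members were lower than in brain. All 36 were tested against the mean of the 10 regions, and 5 rose, against 33.1% of all genes, while 24 fell, against 41.1%. The median log2 fold change was -2.60 for the members and -0.42 for all genes. The all-gene median moved with the scaling, to -2.84 with plain totals, -0.17 with RLE and 0.31 with upper quartile factors, and the all-gene calls from 7239 higher and 8976 lower to 3249 and 15084 with plain totals and 8907 and 6980 with upper quartile factors. The members' calls were 4 higher and 31 lower, and 7 and 21, under those 2 scalings. Of the members that fell 12 did not overlap with any brain library, against 25.6% of all genes, and of those that rose 1, against 11.6%. Detection was taken as at least 1 CPM in at least 80% of libraries, with CPM from plain library totals and not TMM-scaled. It was reached by 7 members in sperm (PCDH1, PCDH7, CDH4, CDH26, CDH1, PCDH15 and CDH20) and by 28 in brain. Sperm values are lower on that scale, where CDH17 had a sperm mean of 0.575 CPM, below most of its TMM-scaled values. The count in sperm therefore depends on the scaling.

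CDH26, a cadherin known from inflamed epithelium, rose most in sheep sperm. It was at 21.6, 453.3, 139, 83.0 and 88.9 CPM, with no brain library above 0.238 CPM, and the difference was 12.09 ± 0.340 (SE, adjusted p = 5.28e-35). CDH17, the intestinal LI-cadherin, was at 0, 4.86, 1.32, 3.78 and 1.12 CPM and rose by 5.93 (SE 0.585, adjusted p = 3.58e-13), with overlap only through sheep 687. CDH1, E-cadherin of epithelial junctions, was at 0.537, 119, 38.8, 18.9 and 18.7 CPM against 0.0404 to 6.37 in brain, 5.74 ± 0.326 higher (SE, adjusted p = 4.84e-22). PCDHB1 rose by 4.15 (SE 0.510, adjusted p = 2.54e-10) at low levels, 0 to 2.95 CPM. PCDH1, a delta-1 protocadherin also known from airway epithelium, was at 155, 895, 268, 122 and 250 CPM against 13.7 to 156 in brain, 2.27 ± 0.203 higher (SE, adjusted p = 1.27e-14). With plain library totals in place of TMM it stood at -0.09, while the median of all genes moved from -0.42 to -2.84, so its direction holds only relative to that median.

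Sheep 688 had the highest sperm values of CDH26, CDH17, CDH1 and PCDH1. In the same order of sheep, stratified squamous epithelium markers (7 of 8 in the table) summed to 8312, 149022, 36374, 8623 and 26108 CPM, neutrophil markers (6 of 6) to 13837, 158924, 83110, 31406 and 54242 CPM, and late spermatid and sperm markers (12 of 12) to 6643, 225, 2732, 754 and 7419 CPM. Sheep 688 was thus highest for the epithelial and neutrophil lists and lowest for the spermatid list. The part of these cells in the member results was not tested.

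Among the members that fell in sheep sperm, CDH16 had no count in any of the 5 libraries. By plain library totals this places it at least 39.8-fold lower than in brain, a bound that is not on the TMM scale. Its fitted call (adjusted p = 0.0257) was lost with upper quartile factors (0.064), with voom (0.816) and without sheep 688, 694 or 699 (0.0553 to 0.0782). PCDH19 fell by 6.65 and PCDH9 by 6.6 on the log2 scale, and sperm values reached at most 0.777 and 3.95 CPM against at least 2.68 and 49.6 CPM in brain. PCDH20 held 3 counts in sperm in all. By plain library totals its ratio of brain to sperm had a 95% interval of 204 to 2888 from counting error alone. The fit with TMM factors gave a log2 fold change of -6.27, a smaller fall than that interval holds, so its size depends on the scaling. CDH22 fell by 6.17, with counts in sheep 699 only. CDH2 fell by 3.04 and differed widely between animals, at 20.3, 0.243, 0, 11.7 and 0.225 CPM. CDH5 fell by 5.58, CDH13 by 2.37 and PCDH11X by 3.56. With voom, PCDH20 (adjusted p = 0.103) and CDH5 (0.107) were not called, and 18 members were called in place of 29.

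Type II cadherins and delta-2 protocadherins gave no rise in sheep sperm, with medians of -3.96 over 13 and -5.70 over 5 members, and 12 and 4 of them fell. PCDH7 (-0.34), CDH4 (0.23) and PCDH15 (-0.04) did not pass the test. Neuron markers (6 of 7 in the table) summed to 102, 7.85, 7.24, 21.5 and 119 CPM in these sperm libraries. Of the listed partner genes, 7 of 17 catenins and junction partners rose and 6 fell, beside 33.1% and 41.1% of all genes, led by NECTIN4 (9.21) and CTNND2 (-6.69). Of 17 regulators 3 rose and 6 fell, with REST highest (2.58), and of 20 protocadherin partners 1 rose and 14 fell, led by WASF2 (1.52) and WASF1 (-8.10). The other superfamily members split 10 to 10 of 24, from DSG3 (7.84), a desmosomal cadherin of squamous epithelium, to CLSTN3 (-10.01), a synaptic calsyntenin.

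**Figure D3:**
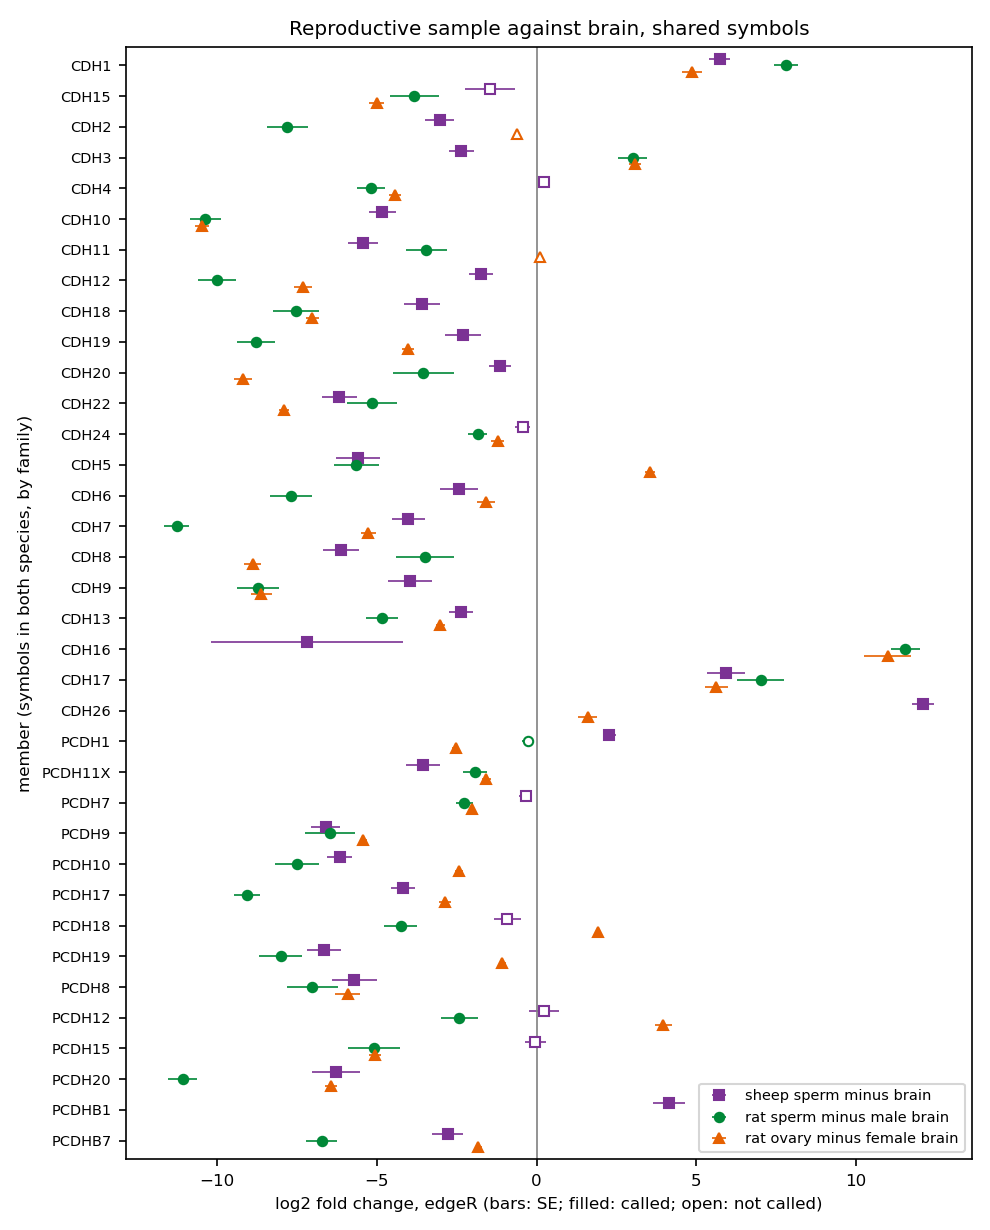
Log2 fold change with its SE for the 36 symbols found in both species, in sheep sperm against brain, rat sperm against male brain and rat ovary against female brain, grouped by family. Filled symbols were called and open symbols were not; CDH16 lies far to the right in both rat comparisons and to the left in sheep.

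Few members were detected in rat sperm, with a small set at high levels. Against male brain, 70 of 74 members were tested, and 5 rose, against 27.7% of all genes, while 61 fell, against 31.5%. The median log2 fold change was -3.65 for the members and -0.03 for all genes, or -0.35 for all genes with plain totals and -0.28 with RLE factors. Groups did not overlap for 2 that rose, against 9.69% of genes, and for 42 that fell, against 22.2%. By the detection rule used for sheep, 13 members were detected in rat sperm and 61 in male brain. All 13 type II cadherins, all 5 delta-2 protocadherins and 19 of 20 tested beta entries fell.

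Cdh16, or kidney-specific cadherin, lies on chromosome 19 from 367202 to 377710 (GRCr8). Over the 15 sperm libraries its lowest level was 3.05 CPM, its median 8.58 and its highest 20.6, a mean of 10.7 ± 5.36 (SD, n = 15), and 14 of 15 male brains had no count. In all, 6936 counts in sperm stood against 1 in brain, a ratio with a 95% interval of 1334 to 293801 from counting error alone. The fitted difference was 11.55 ± 0.448 (SE, adjusted p = 1.57e-20), and it depends on the prior count because the brain is at the floor. Cdh16 thus separated every sperm library from every brain.

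Cdh1, on chromosome 19 from 51402178 to 51471572, had a lowest level of 130, a median of 528 and a highest of 709 CPM in sperm, and 0.778 to 6.08 CPM in male brain. It rose by 7.80 (SE 0.374, adjusted p = 2.88e-18) without overlap. Cdh3, or P-cadherin, the neighbour of Cdh1 (51303414 to 51353900), was at 0 to 24.8 CPM, median 12.7, and rose by 3.01 (adjusted p = 4.95e-07). Cdh17, on chromosome 5 from 30024544 to 30112226, was at 0 to 13.5 CPM, median 6.43, and rose by 7.02 (adjusted p = 4.11e-10). Pcdhga1 rose by 2.65 (adjusted p = 1.19e-06), at 0 to 7.58 CPM. The overlap of Cdh17 with brain came through library 17 alone, that of Pcdhga1 through libraries 7 and 17 and that of Cdh3 through libraries 7 and 16. Epididymis and vas deferens markers (12 of 12) summed to 856 to 23724 CPM in rat sperm against 506 to 737 CPM in brain, and the part of such cells was not tested.

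Among the members that fell in rat sperm, Cdh7 held 2 counts over 15 libraries against 12020 in brain, a ratio with a 95% interval of 1551 to 46287 from counting error. Pcdh20 fell by 11.08, Cdh10 by 10.37, Cdh12 by 10.00 and Pcdh17 by 9.07 on the log2 scale. Cdh2 fell by 7.80, from 82.5 to 116 CPM in brain to at most 2.56 CPM in sperm, and did not overlap. Cdh5 fell by 5.64, Cdh13 by 4.85 and Pcdh11x by 1.93. Of the 4 tested members that were not called, Pcdh1 stood at 35.1 to 219 CPM in sperm and 114 to 222 CPM in brain (-0.26), and the others were Pcdhga11 (-1.09, or -2.25 and called with the replicate block), Pcdhb21 (-0.31) and Pcdhga2 (-0.17). Neuron markers (7 of 7) summed to 1.05 to 20.3 CPM in rat sperm and 3852 to 5312 CPM in brain.

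A further set of members was high in 3 of the 15 rat sperm libraries, numbers 3, 7 and 14. Cdh8, a type II cadherin, was at 7.39, 12.7 and 20.7 CPM in these and at no more than 1.58 CPM in the other 12. Cdh15 was at 2.41, 5.28 and 13.0 CPM against at most 0.661, Cdh20 at 1.29, 8.25 and 7.10 CPM against at most 0.156, and Pcdhb1 at 1.19, 1.72 and 5.45 CPM against at most 0.506. The same 3 libraries had the highest sums of late spermatid and sperm markers (12 of 12), 9459, 24604 and 32155 CPM against 250 to 5405 CPM. Cdh1 was lowest in libraries 14 and 7, at 130 and 196 CPM, and Cdh16 in library 7. Cdh7l1 had 92 counts in sperm and none in brain, at least 31.3-fold higher by the floor of 3 counts over the group, and all 4 libraries with a count included these 3. This co-variation was seen in the data and described after the fact, and it was not tested. Without libraries 3, 7 and 14 the calls were 5 higher and 61 lower, and without libraries 7, 16 and 17 they were 5 and 63.

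**Figure D4:**
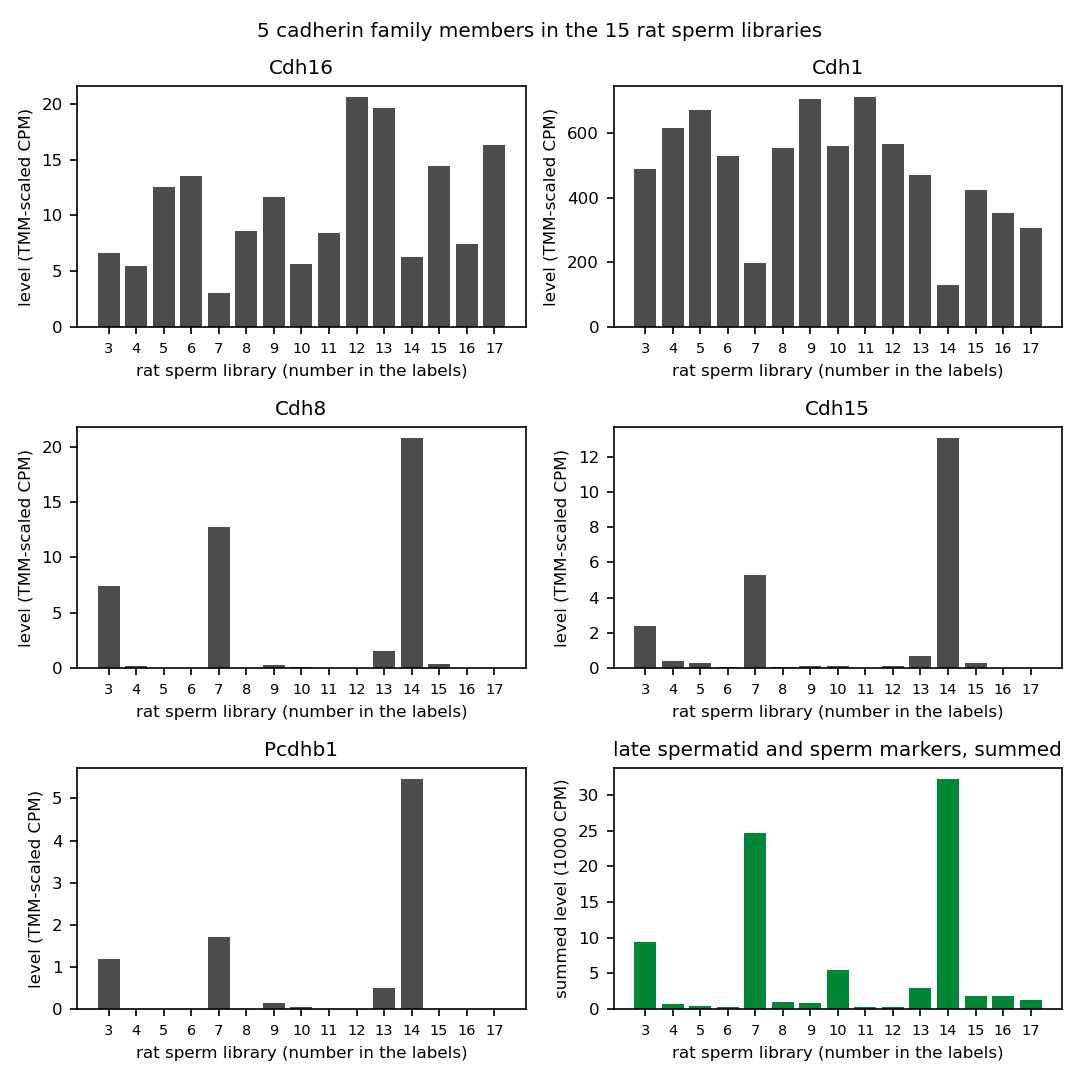
TMM-scaled CPM of Cdh16, Cdh1, Cdh8, Cdh15 and Pcdhb1 and the summed level of 12 late spermatid and sperm markers in each of the 15 rat sperm libraries, as bars from 0, named by the number in the labels. Cdh8, Cdh15 and Pcdhb1 are highest in libraries 3, 7 and 14, which also have the highest marker sums.

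Partner genes in rat sperm were counted in the same way, beside 27.7% of all genes that rose and 31.5% that fell. Of 17 catenins and junction partners 8 rose and 4 fell, led by Nectin4 (6.10) and Ctnnd2 (-6.74), and of 17 regulators 3 rose and 1 fell, led by Rest (2.96) and Dnmt3a (-1.51). Of 20 protocadherin partners 2 rose and 9 fell, led by Wasf2 (2.15) and Nlgn1 (-8.98). The other superfamily members gave 2 higher and 13 lower of 20, led by the desmosomal Dsg2 (6.36) and by Fat3 (-8.72).

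The rat clustered protocadherins lie on chromosome 18, from Pcdha4 at 28688274 to the shared end of the gamma entries at 29919095 (GRCr8), and 41 of the 74 rat members are on that chromosome. Of the 74, 59 had a promoter (250 bases before to 50 after the start) in the RefSeq table for GRCr8. Counting shared 9-base words in the promoters of these arrays gave GGTGGCGCT, a motif chosen after that count, which was then searched on both strands in all promoters of the table. It was found in 15 of 19 beta promoters, 0 of 14 gamma promoters, 0 of 1 alpha promoter and 1 of 25 promoters of the other members (Cdh15, on the reverse strand), against 153 of 33469 promoters, or 0.457%, overall. Because the motif was chosen from these promoters, the beta share follows from that choice and was not tested. Windows of 29 bases around the motif are shown for genes from the start, middle and end of the array, on the forward strand of chromosome 18, with the motif in capitals, because sperm values of the array differed along its length.
Pcdhb3 promoter: atgaacgcatGGTGGCGCTgttgactaag
Pcdhb5 promoter: atgaacgcagGGTGGCGCTgcaggctaag
Pcdhb7 promoter: gtggacgcagGGTGGCGCTgcaggctaag
Pcdhb9 promoter: aaagacacagGGTGGCGCTgcaggctaag
Pcdhb14 promoter: cagaacgcttGGTGGCGCTgcaggctaag
Pcdhb20 promoter: agagacacatGGTGGCGCTgtaggataag
Pcdhb21 promoter: atagtcacatGGTGGCGCTgcaggatagg
The first window covers chr18:29285604-29285632, with the motif 61 bases before the start, and the last chr18:29492149-29492177, 60 bases before it. Pcdhb7 and Pcdhb21, which differed widely in their sperm values, both carried it, and a match is a description of the letters only.

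In rat sperm the beta entries fell more in the first part of the array than at its end. Pcdhb3 (29285675 to 29288229) fell by 6.15, Pcdhb6 by 8.31 and Pcdhb7 by 6.72 on the log2 scale, Pcdhb14 by 4.18 and Pcdhb19 by 2.22. Pcdhb20 fell by 1.10, and Pcdhb21 stood at -0.31 with adjusted p = 0.49. The last entry, Pcdhb22, fell more than these, by 1.81 (adjusted p = 0.000606). Across the 20 tested beta entries the rank correlation of position with log2 fold change was 0.886, a description over genes of the same libraries. The 15 gamma entries ran the other way, from Pcdhga1 at 2.65 to Pcdhgc5 at -3.82, with a rank correlation of -0.761. In the ovary these were 0.173 over 21 beta and 0.214 over 15 gamma entries. Entries of the gamma array share their constant exons and overlap in the annotation, and beta entries resemble each other in sequence, so how the authors' counting divided such reads bears on these values. How reads shared by several entries were counted is not given in the sources used here.

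**Figure D5:**
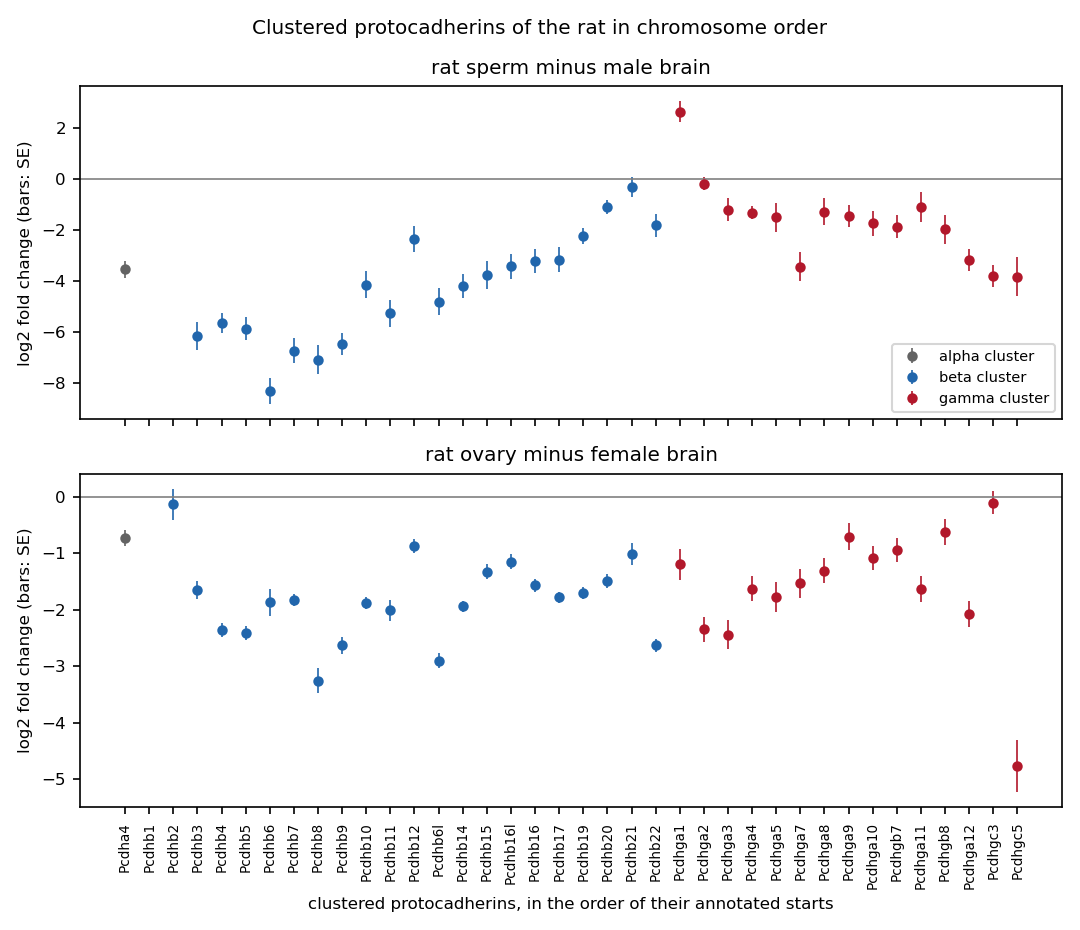
Log2 fold change with its SE of each tested rat clustered protocadherin, in the order of the annotated starts on chromosome 18, for sperm against male brain (top) and ovary against female brain (bottom). In sperm the beta entries lie between -8.31 (Pcdhb6) and -0.31 (Pcdhb21), with the first tested, Pcdhb3, at -6.15 and the last, Pcdhb22, at -1.81. The gamma entries run from 2.65 down to -3.82.

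The arrays also differed in how much they varied between rat brains. Over the 29 rat brains the coefficient of variation of the level had a median of 45.1% among the 15 gamma entries, from 39.7% to 50.7%, and 17.3% among the 22 beta entries, from 8.18% to 129%. Pcdhgc5 ranged from 3.06 to 55.6 CPM and Pcdhgc3 from 11.5 to 62.0 CPM, whereas Pcdhb7 ranged from 4.59 to 7.62 CPM. Pcdha4, the only alpha entry, had a coefficient of 11.2%. Its annotated span, from 28688274 to 29120227, covers the alpha array and RefSeq lists the other alpha names as its synonyms, so 1 value for the array stands beside values of single beta and gamma entries. These are descriptions over the same 29 libraries with no test.

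In the rat ovary Cdh16, Cdh1, Cdh17, Cdh3, Cdh5, Pcdh12, Pcdh18 and Cdh26 were higher than in female brain, and most other members were lower. Of 72 tested members, 8 rose, against 27.7% of all genes, and 55 fell, against 29.2%, and the median log2 fold change was -1.80 for the members and 0.02 for all genes, or 0.30 for all genes with plain totals. Without overlap were 7 that rose, against 21.7% of genes, and 35 that fell, against 23.8%. The labelled tissue was checked with 8 granulosa genes, which summed to 1085 to 4279 CPM in ovary against at most 27.9 CPM in brain, and 7 oocyte genes, at 26.5 to 128 CPM against at most 1.14 CPM. By the detection rule, 35 members were detected in ovary and 60 in female brain. With the replicate block Pcdhga10 stood at -0.98 and was not called.

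Cdh16 had counts in all 14 ovaries, with a lowest level of 0.129, a median of 4.24 and a highest of 8.96 CPM. None of the 14 female brains had a count, so it was at least 1480-fold higher in ovary by the floor of 3 counts over the group. Cdh1 was at 28.9 to 99.4 CPM, median 46.9, and rose by 4.86 (adjusted p = 1.81e-15). Cdh17 rose by 5.63 (adjusted p = 4.85e-15), at 2.62 to 7.17 CPM, and Cdh3 by 3.08, at 8.40 to 22.6 CPM.

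Cdh5 and Pcdh12, both known from endothelium, rose in ovary. Cdh5, on chromosome 19 from 821875 to 860931, was at 67.0 to 161 CPM, median 94.0, against 5.82 to 12.8 CPM in female brain, 3.56 higher (adjusted p = 1.46e-19). Pcdh12, or VE-cadherin-2, on chromosome 18 from 30354910 to 30370485, was at 3.58 to 21.0 CPM and rose by 3.97 (adjusted p = 1.21e-14). Endothelial markers (6 of 6) summed to 255 to 606 CPM in ovary and 118 to 188 CPM in brain, and their part in these results was not tested. Pcdh18 rose by 1.91, with 12.8 to 23.5 CPM against 3.16 to 5.67, and Cdh26 by 1.60, with 0.106 to 0.773 CPM.

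The largest falls in ovary were of type II cadherins: Cdh10 by 10.47, Cdh20 by 9.19, Cdh8 by 8.89, Cdh9 by 8.61 and Cdh22 by 7.90 on the log2 scale. Cdh10 was at 13.9 to 26.2 CPM in female brain and at no more than 0.0457 CPM in ovary. Cdh13 fell by 3.01 and Pcdh11x by 1.57. Cdh2, also known from granulosa cells and oocytes, stayed at 47.8 to 94.1 CPM against 84.5 to 122 CPM in brain. Its difference of -0.62 had adjusted p = 1.92e-07 but did not reach the fold threshold. Cdh11 (0.12), Pcdhgc3 (-0.11) and Pcdha4 (-0.74) were also not called. Among partner genes 6 of 17 catenins and junction partners rose and 5 fell, beside 27.7% and 29.2% of all genes, led by Nectin2 (3.15) and Ctnnd2 (-6.86). Of 17 regulators 5 rose and 1 fell (Rest 2.97), of 20 protocadherin partners 1 rose and 9 fell (Wasf2 2.36, Cyfip2 -5.88), and 6 other superfamily members rose and 11 fell of 20 (Dsc2 5.78, Clstn3 -7.90).

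Between male and female rat brains no member was called. Of 69 tested, 0 passed with edgeR, against 0.0583% of all genes, and 5 had an unadjusted p under 0.05, with 3 in DESeq2 and 9 in voom with quality weights. The smallest p-values belonged to Pcdha4 (-0.14, adjusted p = 0.39), Pcdh17 (-0.24, adjusted p = 0.43) and Pcdhb9 (-0.14, adjusted p = 0.435), as male minus female. With plain library totals the same 3 stood at 0.12, 0.0039 and 0.10, while the median of all genes moved from 0.000128 to 0.22, so their sign follows the scaling. Cdh1 (0.31, adjusted p = 0.808), Cdh5 (0.17, adjusted p = 0.68), Cdh2 (-0.10, adjusted p = 0.46), Cdh13 (-0.12, adjusted p = 0.684) and Pcdh11x (-0.05, adjusted p = 0.91) did not pass, and Cdh16 was not tested. None of the listed partner genes was called between the sexes.

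The sperm to brain differences of the 2 species were set side by side for the 36 shared symbols. Of these, 22 fell in both, CDH1 and CDH17 rose in both, and CDH16 and CDH3 fell in sheep and rose in rat. No share over all shared genes is given beside these joint counts. Taken singly, 41.1% of all genes tested were lower for sheep and 31.5% for rat. Whether falls in both species are particular to the members was not tested. PCDH1 rose in sheep and was not called in rat, PCDHB1 and CDH26 rose in sheep and were not tested in rat, and 7 that fell in rat were not called in sheep (PCDH12, PCDH7, CDH24, CDH4, CDH15, PCDH18 and PCDH15). With the replicate block PCDH18 also fell in sheep, by 1.03 (adjusted p = 0.0199). The difference between the species was then tested as the species by tissue term, with the 10 regions of each sheep summed. It was more positive in sheep for 19 members, against 23.9% of all shared genes, and more positive in rat for 3, against 38.4%, with a median of 2.22 for the members and -0.69 for all genes. With RLE factors the all-gene median was 0.22 and the all-gene calls went from 3619 toward sheep and 5827 toward rat to 5044 and 3978, while the members' calls were 20 and 3.

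The 3 members more positive in rat were CDH16 (-21.30), CDH3 (-5.43) and CDH1 (-2.52), sheep minus rat. The value of CDH16 depends on the prior count, since sheep sperm had no count of it and rat brain 1. The largest differences toward sheep were CDH26 (13.67), CDH12 (8.28), CDH7 (7.30), CDH19 (6.37) and CDH10 (5.59), and CDH2 (4.70) and CDH13 (2.22) were also called. CDH12, CDH7, CDH19 and CDH10 fell in both species, and their differences rest on few sperm counts. These were 9, 2, 5 and 8 over 15 rat sperm libraries and 72, 38, 15 and 23 over 5 sheep sperm libraries. CDH13 lost its call without sheep 687 (adjusted p = 0.0621) or 699 (0.162), with voom (0.0657) and with the replicate block (adjusted p = 0.0865). CDH5 did not differ beyond its error (-0.03, adjusted p = 0.996), and PCDH11X stood at -1.88 (adjusted p = 0.0882), and was called without rat sperm libraries 7, 16 and 17 (-2.003, adjusted p = 0.0402), without sheep 694 (-5.07, adjusted p = 0.000292) with voom (-3.28, adjusted p = 0.0495) and with the replicate block (-3.66, adjusted p = 0.0249). In rat sperm, squamous epithelium markers (7 of 8) summed to 5.41 to 208 CPM and neutrophil markers to 5.67 to 53.0 CPM, against 8312 to 149022 and 13837 to 158924 CPM in sheep sperm, so the 2 kinds of sperm sample differed in these cell markers as well as in species and preparation.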

How the data were processed

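The analysis used 55 sheep and 58 rat libraries, with groups taken from the sample labels. The authors deposited raw counts per gene, with a column for each library and no normalization or pooling. Per the labels' protocols, stranded mRNA libraries (Kapa for sheep, Watchmaker for rat) were read as 150 base pairs from both ends. The submitters' processing notes name bcl2fastq 2.20, Trimmomatic 0.39 (a read trimmer), STAR 2.7.5a (an aligner), Rsubread 2.20.0 (a read counter) and R 4.4.2, and the builds GRCr8 and ARS-UI_Ramb_v3.0. Whether counting used strand, and what was done with multi-mapping reads, is not given in the sources used here. No sheep annotation was used here.

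Counts were tested with edgeR 4.0.16 (quasi-likelihood F test, TMM factors, filterByExpr, prior count 0.125) in R 4.3.3. Every fit covered all genes, and p-values were adjusted over all genes tested. CPM values are scaled within each fit, so levels from different fits are not on 1 scale. Regions were contrasted in 1 fit of 50 libraries, sheep sperm in 1 fit of 55, and each rat comparison on its own groups. Alternatives were DESeq2 1.42.0, voom with quality weights (limma 3.58.1), other scaling factors, no low-count filter, a replicate block and leaving out each sheep. Leaving out rat sperm libraries 7, 16 and 17 or 3, 7 and 14, the posterior parietal library of sheep 694, or the library labelled motor cortex of sheep 687 with the library labelled entorhinal cortex of sheep 688 was chosen after seeing the data. The fits were tested on simulated data.

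Members and gene lists were chosen with earlier results of these data known. In each region the text names the 2 called members per direction with the largest change and at least 5 CPM in the highest region, in each tissue or species comparison the 5 per direction with at least 1 CPM, between the sexes the 3 with the smallest p, and in every comparison CDH1, CDH2, CDH5, CDH13, CDH16 and PCDH11X (over the 10 regions, uncalled values as ranges). Other members named for a pattern were chosen after their values were seen. Brain, sperm and ovary of 1 number come from the same animal per the labels. Deviations of same-numbered samples from their group means had a median correlation of 0.183 over 225 pairs of sheep regions, 0.063 over 5 sheep sperm and brain pairs, 0.051 over 15 rat sperm and brain pairs and 0.0037 over 14 ovary and brain pairs. Intervals, floors and the detection rule use plain library totals, not TMM, and the intervals and floors cover counting error only.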

Additional observations from a re-analysis of the deposited data

Results flagged for a closer look

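Among 39 pairs of a named member and a sheep group of 5 libraries, 11 held a library far from the other 4 for the group's range. Chance flags about 1 in 20 groups if values are normally distributed, which low counts are not. A group with counts in 1 library only, as for PCDH19 and CDH22 in sheep sperm, is always flagged. The 11 flags are therefore a description and show no excess over chance. CDH9 in frontal cortex was lowest in sheep 688, at 10.9 CPM against 13.9 to 15.1. In pons, sheep 694 was highest for CDH9, at 3.56 CPM against 0.0214 to 0.730, and for PCDH8, at 7.48 CPM against 0.619 to 1.31. CDH5 in posterior parietal cortex was highest in sheep 694, at 72.8 CPM against 9.73 to 23.4. CDH15 in prefrontal cortex was highest in sheep 688, at 0.462 CPM against 0.168 to 0.200.

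In sheep sperm, sheep 688 was highest for CDH26, at 453.3 CPM against 21.6 to 139, and for PCDH1, at 895 CPM against 122 to 268. Sheep 694 was highest for PCDH19 (0.777 CPM, the others 0), CDH5 (0.888 CPM, the others at most 0.0809) and PCDH11X (5.00 CPM, the others at most 0.988). CDH22 was at 1.57 CPM in sheep 699 and 0 in the others.

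Between species, the sperm to brain differences of CDH16 and CDH3 had opposite directions and the interaction term was called, at -21.30 and -5.43 on the log2 scale, as sheep minus rat.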

How the results depend on the processing

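Of 1298 values recomputed under alternatives, 1218 kept their direction and their side of the threshold (or, for counts, stayed within 1.5 times), 32 lost and 5 gained a call, 26 counts moved further and 17 values changed sign. Members called in entorhinal cortex (2) became 4 with voom and 5 without the libraries labelled motor cortex of sheep 687 and entorhinal cortex of sheep 688. In motor cortex (1) they became 2 with DESeq2, 2 with the replicate block, 3 with voom and 4 without those 2 libraries. In posterior parietal cortex (2) they became 0 with voom and 0 without the library of sheep 694, and in prefrontal cortex (2) 5 and 5. In sheep sperm 29 became 18 with voom. The cause was not tested, except that 2 settings hold fewer libraries. The block moved no other count by over 1.5 times. Among the 6 members named in every comparison it ended the calls of CDH13 between species (adjusted p = 0.0865), CDH16 in pons (0.0657) and CDH1 in posterior parietal cortex (0.0656), and called PCDH11X between species (-3.66, adjusted p = 0.0249).

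Leaving out each sheep gave 29 to 31 members among regions, 5 to 9 in basal ganglia (5 without sheep 699), 21 to 23 in cerebellum, 0 to 4 in entorhinal, 3 to 6 in frontal, 0 to 3 in motor, 0 to 3 in posterior parietal, 1 to 3 in prefrontal and 2 to 4 in visual cortex, 4 to 6 in hippocampus, 7 to 12 in pons, 27 to 30 in sheep sperm, 20 to 23 between species and 0 to 0 among neocortical areas. With plain library totals the sign changed between the sexes for Pcdha4 (0.12), Pcdh17 (0.0039), Pcdhb9 (0.099), Cdh13 (0.12), Cdh2 (0.12) and Pcdh11x (0.18), and in sheep sperm for PCDH1 (-0.0919). CDH5 between species, near 0, became 0.91 with DESeq2 and with RLE factors, 0.0186 without the low-count filter, 0.28 with the block, 0.75 with upper quartile factors, 1.53 with voom and 0.21, 0.20, 0.19, -2.63 and 0.45 without sheep 687, 688, 690, 694 and 699. Members with few counts in sperm are limited by depth.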
